A study of Mus musculus with 6 samples.

Results

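The clustered histone genes were taken as the rows whose gene name begins with Hist, a cluster digit from 1 to 4 and the letter h, leaving out 1 row whose name contains -ps. This gave 70 of the 34745 rows, 6 for linker histone H1 and 64 for core histones (20 H2A, 19 H2B, 12 H3 and 13 H4). Messenger RNA had been sequenced from heart macrophages of C57BL/6 mice aged 8 weeks, in 3 libraries from mice lacking legumain, an asparaginyl endopeptidase of the lysosome (Lgmn KO, replicates 1, 2 and 4) and 3 from wild-type mice (WT, replicates 1, 2 and 3). All groups shared the enzymatic digestion of the heart and the staining for CD45, CD64 and CD11b for cell sorting. The series places the samples after myocardial infarction, and the labels name artery ligation or sham surgery without saying which operation each animal had. The labels give neither the deleted part of Lgmn nor a cell type restriction of the deletion. They do not say that the libraries came from separate animals, so tests measure the spread between these libraries.

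Core histones form the protein spool around which DNA is wrapped, and linker histone H1 binds the DNA where it enters and leaves that spool. Most clustered histone genes are transcribed in S phase, when newly copied DNA is packaged, and their messages end in a conserved stem-loop that binds the protein Slbp in place of a poly(A) tail. Some of these genes also give messages that run past the stem-loop and carry a poly(A) tail, a form known from cells that have stopped dividing, as most tissue macrophages have. The labels do not say whether poly(A) RNA was selected for these libraries.

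The stem-loop is shown first because the counts below are read against what each gene model holds after it. These are the 28 bases around the stem-loop in the GENCODE M21 transcript (GRCm38), 5′ to 3′ on the gene's strand, with the 16 bases of the stem-loop in capitals.
Hist1h1c: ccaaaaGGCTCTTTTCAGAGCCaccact
Hist3h2a: accaaaGGCTCTTTTCAGAGCCacccac
Hist2h2aa1: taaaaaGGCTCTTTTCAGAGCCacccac
Hist1h2bf: cccaaaGGCTCTTTTCAGAGCCacctac
Hist1h2bg: cccaaaGGCTCTTTTCAGAGCCacccat
Hist2h3c2: cacaaaGGCTCTTTTCAGAGCCaccaca
Hist1h4i: cttaaaGGCCCTTTTTAGGGCCaccaca
The stem-loop letters were identical in the first 6 of these genes. Hist1h4i, which encodes histone H4, had other letters within it. The Hist1h1c stem-loop lies at chr13:23739512-23739527 on the plus strand, the Hist3h2a one at chr11:58955172-58955187 (plus) and the Hist1h2bf one at chr13:23573765-23573780 (minus). All 3 lie in the 3′ untranslated part of single-exon genes.

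Few of the histone genes gave more than traces of RNA. Of the 70 genes, 9 had 0 counts in every library, 36 had 1 to 9 counts over all 6 libraries together, and 14 passed edgeR's filter on low counts. The 14 held 98.0% of the 18692 histone counts. A single gene, Hist1h1c, held 31.0% of them, and the 4 most counted genes (Hist1h1c, Hist3h2a, Hist2h2be and Hist1h2bc) held 81.1%. The chromosome 13 cluster contains 56 of the genes but only 8 of the 14. On chromosome 3, 4 of 11 genes passed, as did both genes on chromosome 11 (Hist3h2a and Hist3h2ba). The gene on chromosome 6 did not, with 9 counts in all.

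Within each class, 1 gene carried most of the counts. Hist1h1c, which encodes a somatic H1, made up 99.2% of linker counts. Hist3h2a made up 67.5% of H2A counts, Hist2h2be 58.0% of H2B counts, Hist2h3c2 82.6% of H3 counts and Hist1h4i 69.7% of H4 counts. The other linker genes were near or at 0: the testis gene Hist1h1t had no count in any library, and the somatic genes Hist1h1a, Hist1h1b, Hist1h1d and Hist1h1e had 3, 8, 17 and 19 counts in all. A count of 0 in 1 library allows up to 0.125 to 0.153 CPM (3 counts per library; CPM is the count relative to the library total after TMM scaling), and this floor covers counting error only.

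Levels between genes can be compared only per length, in the deposited FPKM (fragments scaled to gene length and library total). The highest mean FPKM over the 6 libraries was that of Hist1h1c, 29.6, with a range of 16.4 to 44.9. Hist1h2bc followed at 19.7, Hist2h2aa1 at 18.5 with libraries at 0, Hist3h2a at 15.2 and Hist2h2be at 10.1. Hist2h2aa2 had 8.58, Hist2h3c2 3.44 and Hist1h4i 3.06. The spread of Hist1h2bc, 12.9 to 30.3, overlapped with that of each neighbour in this order. H3 and H4 genes thus stood below the leading H1, H2A and H2B genes on the FPKM scale.

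The annotated transcript end was compared with the counts. In 44 of the 65 protein-coding gene models of M21 the stem-loop was found, 40 times exactly and 4 times with 1 mismatch. Only bases after the coding part were searched. Short models without a match, such as Hist1h4k at 312 bases and Hist1h2bn at 381, may end before a stem-loop, so the gene may still have one. In 22 of the 44 with a match the stem-loop lay within the last 100 bases of the model, and these genes held 11.2% of histone counts. The other 22 had 100 or more bases after it and held 59.7%. These are M21 ends, and 80.6% of the gene IDs found in M21 had the same position in the deposited rows. Some deposited rows imply a shorter gene: 744 bases for Hist1h1d and 476 for Hist1h2ac, against 7425 and 2482 in M21. Reads in the rest of such a tail may not be in the counts. Hist1h1c and Hist3h2a had the same length in both, 1560 and 2146 bases. Hist1h1c had 840 annotated bases after the stem-loop, Hist3h2a 1643, Hist2h3c2 377 and Hist1h4i 330, against 35 for Hist2h2aa1 and Hist2h2aa2 and 29 for Hist1h2bf. A poly(A) signal, AATAAA or ATTAAA, stood in the last 60 bases of 17 gene models, which held 75.0% of histone counts, while the 48 without one held 24.6%. Neither the stem-loop nor such a signal was found in Hist1h2bc, whose M21 model has 2 exons and 1156 bases. The deposited row of that gene lies at chr13:23684199-23692488, and its counts and FPKM imply a length of 736 bases. Hist2h2be had a poly(A) signal and no stem-loop in its 2620 bases. Longer models also offer more bases for reads: genes whose deposited counts and FPKM imply at least 700 bases numbered 20 and held 87.1% of the counts. Shared sequence went with low counts too. Of the 68 genes in M21, 36 had at least 50% of their 50-base windows in another transcript, and these held 14.4% of histone counts. How reads of such windows were counted is not stated. Model length, transcript end and shared sequence cannot be told apart in these counts.

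**Figure D1:**
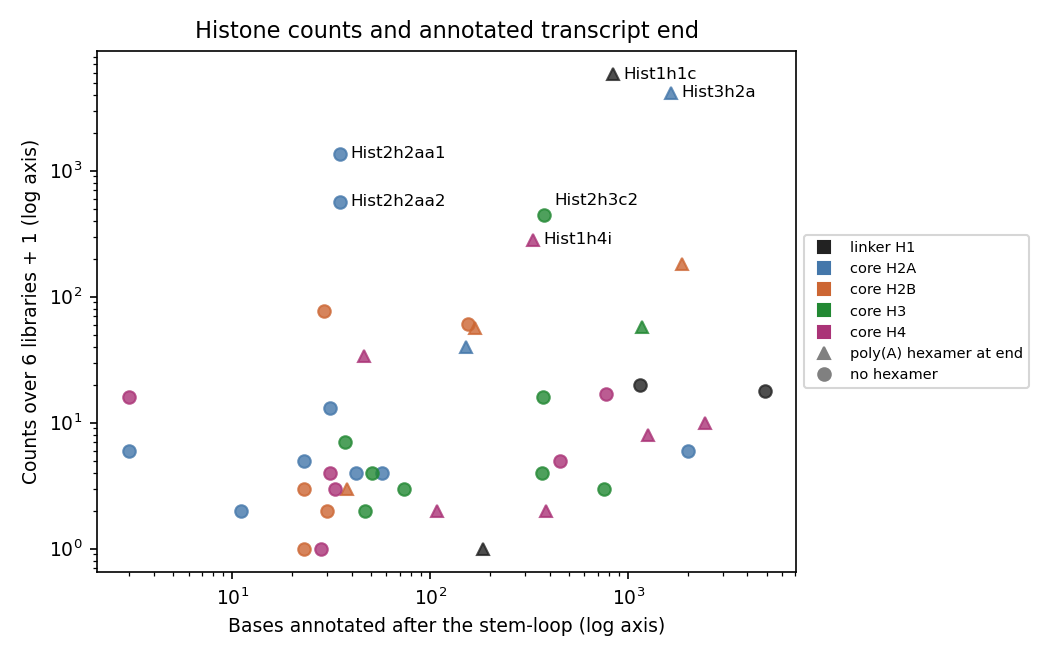
Each point is 1 of the 44 histone genes with a stem-loop. The x axis gives the bases after the stem-loop in M21, which for some genes run past the deposited row. The y axis gives the counts over 6 libraries plus 1. Both axes are log, with colour for the class and triangles for a poly(A) signal at the model's end. Hist1h1c and Hist3h2a, with 840 and 1643 bases after the stem-loop, stand highest, and Hist2h2aa1 and Hist2h2aa2 are the highest of the genes with a short end.

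Of 22 listed RNAs that lack a poly(A) tail, or whose longer form does, 7 were found in the table by symbol, 5 small ones at few counts and 2 long ones at many. Among the small RNAs, Rmrp had 1 count in all, Rny1 and Rny3 had 0, Terc had 0 to 4 counts per library and Rpph1 had 0 to 11. The long nuclear RNAs were abundant: Malat1, whose end is cut from a longer transcript at an encoded run of A, had 353 ± 39.6 CPM in Lgmn KO and 279 ± 24.4 in WT (SD, n = 3 each here and below). Neat1, which has a short form with a tail and a long form without one, had 796 ± 309 and 453 ± 42.1 CPM. Both were at an unadjusted p below 0.05 and not called by edgeR, and DESeq2 called 1 of them higher. How the libraries treated RNA without a tail, and its part in the low counts of short histone messages, was not tested.

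Between genotypes, the linker gene Hist1h1c rose in Lgmn KO, and the H2B genes Hist1h2bc and Hist1h2bf fell, in edgeR's quasi-likelihood test over all genes at a Benjamini-Hochberg adjusted p below 0.05. These were 3 of the 14 histone genes tested, where 0.789% of the 12546 genes tested were called (0.311% higher and 0.478% lower in Lgmn KO). The genes were chosen by name, with earlier Lgmn KO and WT counts of these same libraries known, so the differences are given as a description and nothing is read from that count. Lgmn itself, the check of the genotype label, had 83.5 ± 4.91 CPM in Lgmn KO against 2390 ± 263 in WT, and its remaining reads were not assigned to a part of the gene. The totals of the libraries were 19546253 to 24086976 counts.

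Hist1h1c (ENSMUSG00000036181, chr13:23738808-23740367) had 1227, 1370 and 1340 counts in Lgmn KO replicates 1, 2 and 4, against 515, 568 and 781 in WT replicates 1, 2 and 3. The lowest Lgmn KO library stood well above the highest WT library. Scaled to library size, the means were 64.5 ± 4.89 CPM in Lgmn KO against 28.0 ± 4.02 CPM in WT, a fitted log2 fold change of 1.21 (SE 0.12). Only 8.54% of its 50-base windows occur in another transcript, those of Hist1h1d and Hist1h1e. The fitted log2 fold change stayed between 1.13 and 1.33 when each library was left out in turn, and the call was lost without Lgmn KO replicate 2. Of the other linker genes, Hist1h1d had 4, 5 and 6 counts in Lgmn KO against 1, 0 and 1 in WT, and Hist1h1e had 4, 3 and 5 against 4, 3 and 0. Hist1h1d did not overlap between the groups and Hist1h1e did, both at counts too low for the test.

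**Figure D2:**
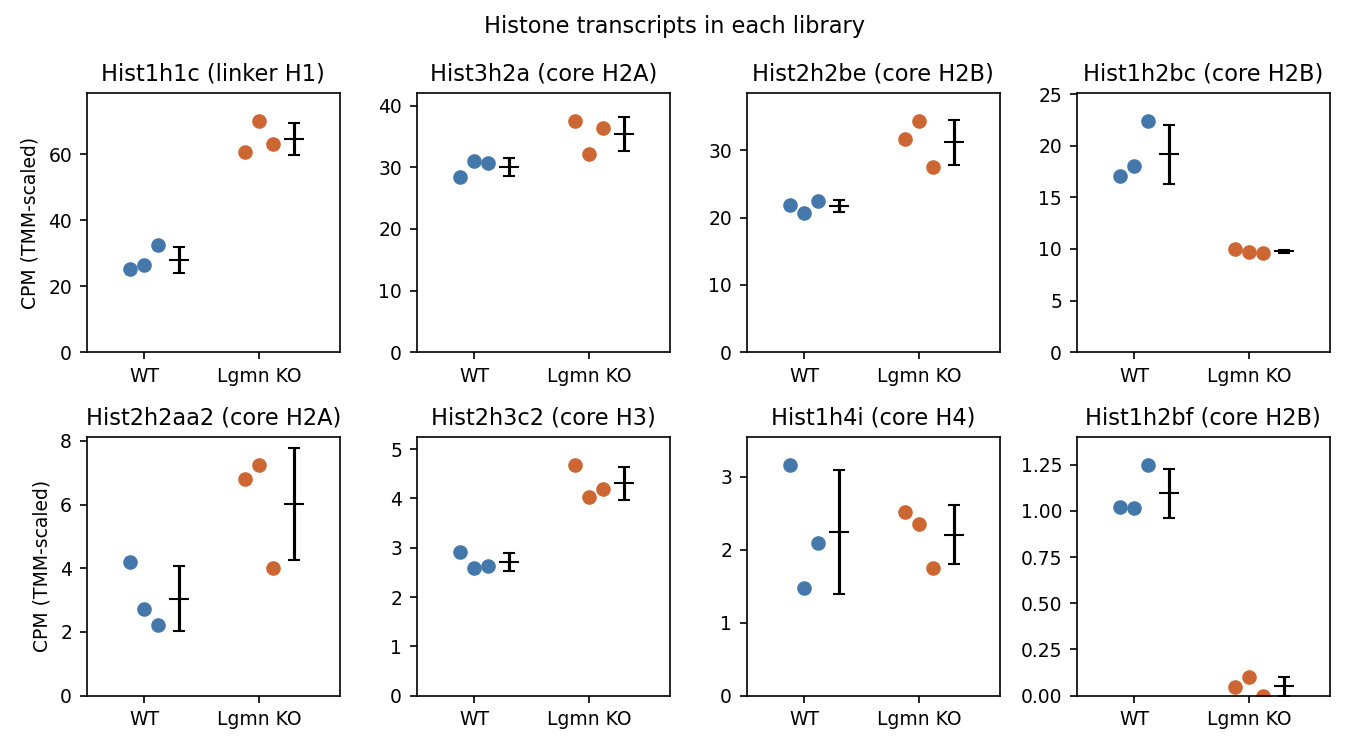
Points are CPM in the 3 WT and 3 Lgmn KO libraries for 8 histone genes, with the mean and SD as a black bar, each panel on its own linear axis from 0. Hist1h1c, Hist2h2be, Hist3h2a and Hist2h3c2 have every Lgmn KO library above every WT library, Hist1h2bc and Hist1h2bf have every one below, and Hist2h2aa2 and Hist1h4i overlap.

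Among the H2A genes, none of the 3 tested was called by edgeR or DESeq2, with 2 at an unadjusted p below 0.05 in edgeR. Hist3h2a, a gene of the small chromosome 11 cluster, had 35.3 ± 2.76 CPM in Lgmn KO against 30.0 ± 1.46 in WT, a log2 fold change of 0.23 (SE 0.09). Its libraries did not overlap, but the gap was narrow, with 32.2 CPM in the lowest Lgmn KO library and 31.0 in the highest WT library. Of its 50-base windows 31.5% occur elsewhere, mostly in Trim17, which overlaps it and had at most 6 counts in a library. Hist2h2aa2 had 138, 142 and 85 counts in Lgmn KO against 86, 59 and 53 in WT. The lowest Lgmn KO library, at 85, lay just under the highest WT library, at 86.

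Hist2h2aa1 (chr3:96245497-96246082) had 0, 516 and 504 counts in Lgmn KO replicates 1, 2 and 4, against 0, 330 and 0 in WT. It was the only row of the table with 0 in those 3 libraries and at least 20 counts in each of the other 3. That set of libraries was taken from Hist2h2aa1 itself. With any 3 libraries at 0 and at least 20 counts in each of the others, there were 6 rows, Hist2h2aa1 included. The fitted log2 fold change of Hist2h2aa1, 1.72, had a standard error of 1.73. Each of its 50-base windows occurs in another transcript: the gene lies in a duplicated segment of chromosome 3, beside its near copy Hist2h2aa2, and the predicted transcripts Gm20632, Gm20633 and Gm20634 overlap the 2 copies. In the 3 libraries where Hist2h2aa1 was at 0, Hist2h2aa2 had 138 (Lgmn KO 1), 86 (WT 1) and 53 (WT 3) counts. It had 142 (Lgmn KO 2), 85 (Lgmn KO 4) and 59 (WT 2) in the other 3, so the 2 sets overlapped. The sum of Hist2h2aa1 and Hist2h2aa2 was 138, 658 and 589 counts in Lgmn KO against 86, 389 and 53 in WT. Gm20634, which lies on the same strand and also spans the H3 gene Hist2h3c1, had 164, 240 and 197 counts in Lgmn KO against 81, 16 and 135 in WT. Hist2h3c1 had 0, 25 and 29 counts against 0, 2 and 0, with its 3 zeros in the same libraries as Hist2h2aa1. The counts of these rows are therefore uncertain, and how the authors' counting divided reads among them was not tested.

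**Figure D3:**
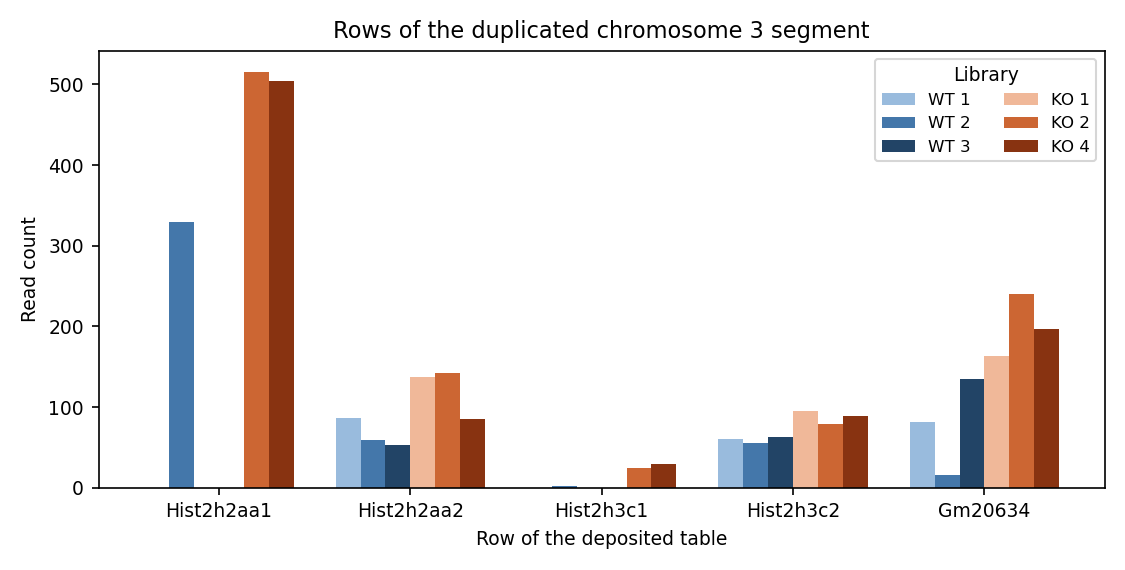
Bars give the read counts of 5 rows of the duplicated chromosome 3 segment in each of the 6 libraries, WT in blue and Lgmn KO in orange. Hist2h2aa1 is at 0 in WT 1, WT 3 and KO 1 and at 330 to 516 in the other libraries, while its near copy Hist2h2aa2 has 53 to 142 counts in all 6.

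The H2B genes did not share a direction. Hist1h2bc (ENSMUSG00000018102) had 202, 190 and 204 counts in Lgmn KO against 351, 390 and 537 in WT. All Lgmn KO libraries lay close together and below every WT library. The means were 9.76 ± 0.18 CPM and 19.2 ± 2.83 CPM, a log2 fold change of -0.97 (SE 0.13). Of its windows 30.6% occur in other H2B genes. Left out in turn, the libraries gave -1.05 to -0.85, and the call was kept in 1 of 6 such fits, the one without WT replicate 1.

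Hist1h2bf (ENSMUSG00000069268, chr13:23573736-23574196) was almost absent from Lgmn KO, with 1, 2 and 0 counts, and had 21, 22 and 30 counts in WT. The ratio of the 73 WT counts to the 3 Lgmn KO counts, scaled to library size, was 22.5 with an exact 95% counting interval of 7.39 to 111. The interval takes reads as independent molecules and covers neither the spread between libraries nor PCR copies. The gene passed the filter on low counts only through WT, and 65.8% of its windows occur in other H2B genes. Its call, like that of Hist1h2bc, was kept in 1 of 6 fits that left out a library, the one without WT replicate 1. Its neighbour Hist1h2bg (chr13:23571408-23571884), read from the opposite strand, lay on the other side: 13, 14 and 13 counts in Lgmn KO against 7, 7 and 6 in WT, with a log2 fold change of 1.10 (SE 0.39) that was not called. Hist1h2bg passed the filter only through Lgmn KO. Of its windows 49.7% occur in another transcript, and 197 of them occur in Hist1h2bf. How reads of the windows shared by this pair were counted was not tested.

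Hist1h2bq had 26, 18 and 16 counts in Lgmn KO against 0, 3 and 3 in WT. It passed the filter through Lgmn KO and was not called by edgeR at this threshold, though DESeq2 called it. Of its windows 97.3% occur elsewhere, nearly all in its near copy Hist1h2br, which had 5 counts in all. Hist2h2be, none of whose windows occur in another transcript, had 31.2 ± 3.40 CPM in Lgmn KO against 21.7 ± 0.87 CPM in WT. Its libraries did not overlap and its log2 fold change was 0.52 (SE 0.10). It was not called in this fit, but it was by DESeq2 and by edgeR without the filter on low counts. Hist1h2be, Hist1h2bh and Hist3h2ba overlapped between the groups, at log2 fold changes of 0.65 (SE 0.38), -0.19 (SE 0.43) and -0.01 (SE 0.82). Exons of Hist1h2be overlap those of Hist1h1e in M21, and its counts and FPKM imply a length of 6940 bases, so its counts are uncertain.

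Single genes represented H3 and H4 in the test. Hist2h3c2 had 95, 79 and 89 counts in Lgmn KO against 60, 56 and 63 in WT. The groups did not overlap, and its log2 fold change was 0.67 (SE 0.17), not called. Of its windows 63.5% occur in other rows, Hist2h3c1 first. Hist1h4i had 51, 46 and 37 counts in Lgmn KO against 65, 32 and 50 in WT, overlapping, with a log2 fold change of -0.02 (SE 0.32).

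**Figure D4:**
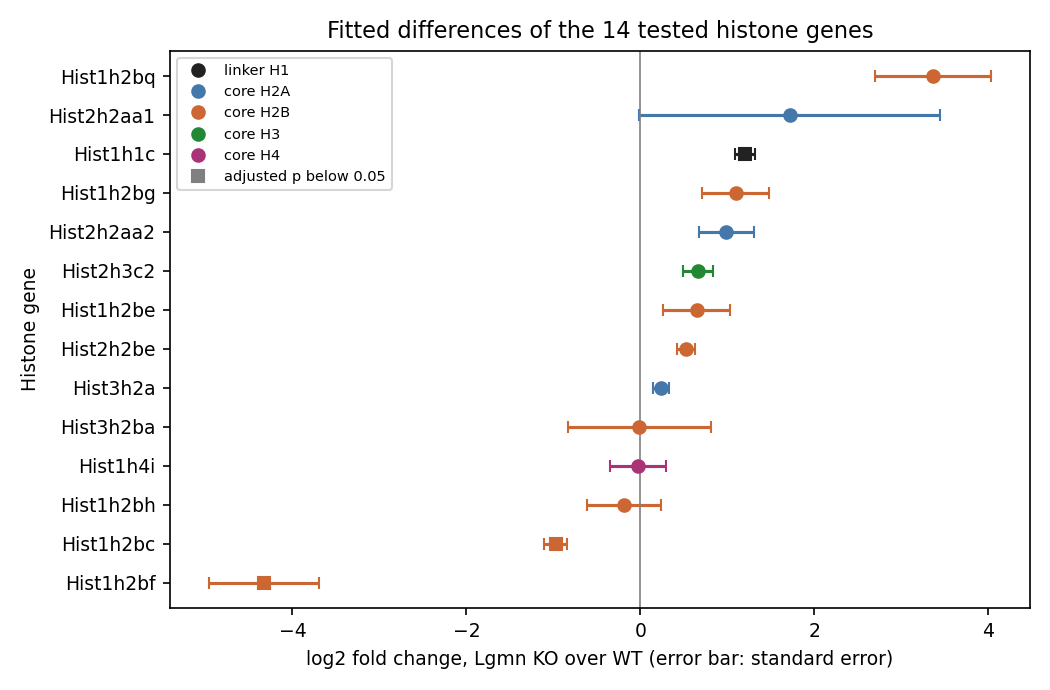
Points are fitted log2 fold changes of Lgmn KO over WT for the 14 histone genes tested, with bars for the standard error, colour for the class and squares for an adjusted p below 0.05. H2B genes lie at both ends, from -4.32 for Hist1h2bf to 3.37 for Hist1h2bq, and the widest bar is that of Hist2h2aa1.

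Over the 14 genes, 9 fitted values were above 0 and 5 below, with a median of 0.58 against -0.00 over all genes tested. The 8 H2B genes divided into 4 and 4. In 6 genes every Lgmn KO library lay above every WT library and in 2 every one lay below, while 23.7% of all genes tested had groups that did not overlap in either direction. Among these histone genes, Hist1h2bg and Hist1h2bq had passed the filter only through Lgmn KO and Hist1h2bf only through WT. Just inside the filter were Hist3h2ba, Hist1h2bg and Hist1h2bq, with 55, 60 and 66 counts over all libraries. Just outside were Hist2h3c1, Hist1h2ae and Hist1h4h, with 56, 39 and 33. In the authors' deposited table, 52 histone genes had a q-value, and 6 were below 0.05, where 3.81% of all genes with a q-value were. These were Hist1h1c, Hist1h2bq, Hist2h3c1 and Hist2h2be, higher in Lgmn KO, and Hist1h2bc and Hist1h2bf, lower.

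Linker and core histones were compared within each library, which needs no scaling between libraries. Linker counts were 37.8%, 36.3% and 35.7% of histone counts in Lgmn KO replicates 1, 2 and 4, against 23.4%, 21.3% and 27.0% in WT replicates 1, 2 and 3. The Wilson 95% intervals of the nearest libraries, 34.2% to 37.2% for Lgmn KO replicate 4 and 25.4% to 28.7% for WT replicate 3, did not meet. These intervals cover counting error only, and reads without molecular identifiers are not independent molecules. The group means were 36.6% ± 1.08 and 23.9% ± 2.91, and the log2 ratio of linker to core counts was 0.88 higher in Lgmn KO. Without Hist2h2aa1 and Hist2h3c1 the shares were 40.5% ± 2.39 and 24.9% ± 1.89. Since Hist1h1c is nearly the whole of the linker counts, this share is in effect that of 1 gene.

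**Figure D5:**
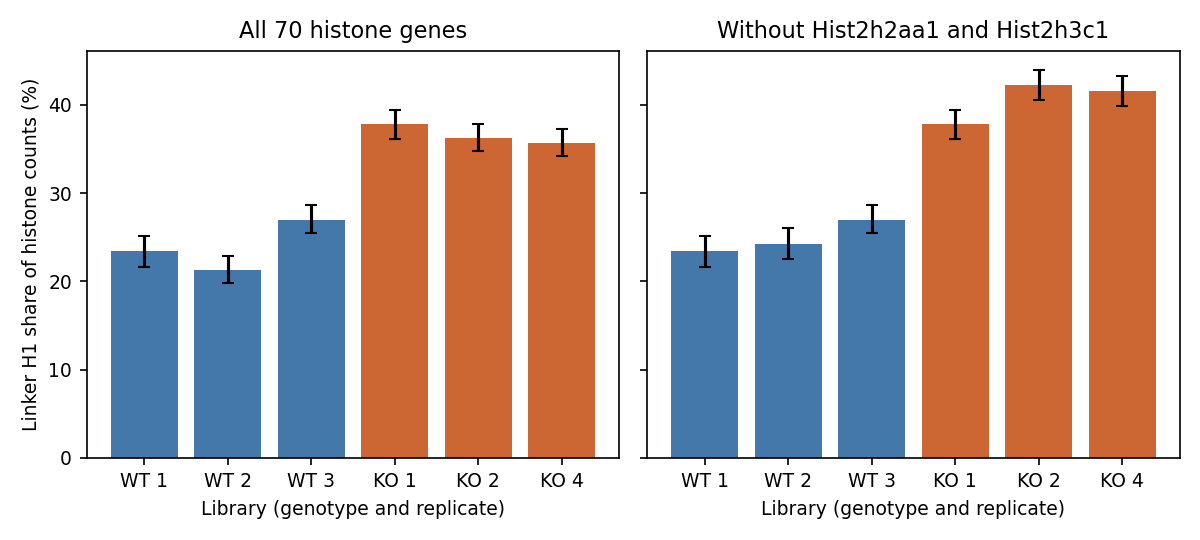
Bars give the linker H1 share of histone counts in percent for each library, with Wilson 95% intervals, for all 70 genes and without the 2 genes at 0 in the same libraries. The Lgmn KO libraries lie between 35.7% and 37.8% in the first panel, above the WT libraries at 21.3% to 27.0%.

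The sum over all 70 histone genes was 161, 195 and 178 CPM in Lgmn KO against 108, 124 and 121 CPM in WT. The ratio of the means, 178 ± 17.0 to 118 ± 8.43, was 1.51. Linker genes summed to 65.1 ± 5.07 and 28.1 ± 3.93 CPM, a ratio of 2.31. Core genes summed to 113 ± 12.1 and 89.7 ± 7.60 CPM, a ratio of 1.26, which was 1.13 without Hist2h2aa1 and Hist2h3c1. By class the ratio was 1.52 for H2A, 1.02 for H2B, 1.75 for H3 and 1.00 for H4. The H2A sum carries the Hist2h2aa1 zeros and the H3 sum those of Hist2h3c1. Hist2h3c1 had a mean of 0.88 CPM in Lgmn KO and 0.03 in WT, within H3 sums of 5.41 and 3.10 CPM. The level H2B sum was made of genes that differed in opposite directions. The sum of the 56 genes under the filter was 3.79 ± 1.00 CPM in Lgmn KO against 2.29 ± 0.26 CPM in WT. In bulk samples, fewer cells of a type and less RNA per cell cannot be told apart.

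The promoters of the gene that rose and of the neighbouring H2B pair are shown because the pair lay on opposite sides, at low counts and with shared sequence. Each is the 250 bases before the RefSeq start in GRCm38.p6, 5′ to 3′ on the gene's strand, with matches to the motifs below in capitals. They span chr13:23738557-23738806 (plus strand) for Hist1h1c, chr13:23574208-23574457 (minus) for Hist1h2bf and chr13:23571150-23571399 (plus) for Hist1h2bg.
Hist1h1c: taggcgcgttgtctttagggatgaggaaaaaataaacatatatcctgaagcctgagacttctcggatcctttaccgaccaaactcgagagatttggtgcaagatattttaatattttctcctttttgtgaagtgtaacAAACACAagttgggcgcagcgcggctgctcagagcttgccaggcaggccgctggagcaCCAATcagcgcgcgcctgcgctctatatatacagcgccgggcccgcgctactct
Hist1h2bf: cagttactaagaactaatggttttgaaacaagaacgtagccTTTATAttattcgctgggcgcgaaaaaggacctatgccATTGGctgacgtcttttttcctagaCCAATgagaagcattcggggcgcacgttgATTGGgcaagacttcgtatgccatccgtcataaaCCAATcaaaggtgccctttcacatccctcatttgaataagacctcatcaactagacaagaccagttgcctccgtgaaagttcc
Hist1h2bg: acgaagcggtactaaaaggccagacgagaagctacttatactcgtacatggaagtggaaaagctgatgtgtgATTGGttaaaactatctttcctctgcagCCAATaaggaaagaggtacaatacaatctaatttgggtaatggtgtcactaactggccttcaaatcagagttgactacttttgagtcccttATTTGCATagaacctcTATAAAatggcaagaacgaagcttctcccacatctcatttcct
Motifs were searched on both strands, and none of the motifs contains another. AAACACA is an element known from H1 promoters. CCAAT is the box bound by the factor NF-Y. ATTTGCAT is the octamer known from H2B promoters. TATAAA is a form of the element that positions the start of transcription. Hist1h1c held AAACACA and 1 CCAAT. Hist1h2bf held 4 matches of CCAAT, and its other match was to TATAAA. Hist1h2bg held 2 matches of CCAAT. Unlike Hist1h2bf, it also held the octamer. Both held a TATAAA match, but in different places. In Hist1h2bg the match was on the gene's strand and near the start. In Hist1h2bf it was the reverse form, TTTATA, in the part of the stretch far from the start. A promoter for Hist1h2bc was not matched.

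Of the histone rows, 63 matched a RefSeq gene with a promoter, which gave 63 distinct promoters: the 2 Hist2h2bb rows share 1 and Hist1h2be has 2. Of these promoters, 20 overlap another, each that of a neighbouring gene on the opposite strand, so they share sequence. CCAAT was in 82.5% of them, against 33.8% of all 32851 promoters in the table. CCAAT was in all H2A, H2B and H1 promoters matched, in 80.0% of H3 and in 25.0% of H4 promoters. AAACACA was in 5 of 6 linker promoters (83.3%) and in 6.25% of all. ATTTGCAT was in 7 of 17 H2B promoters (41.2%) and 7 of 18 H2A promoters (38.9%), in none of the matched H1, H3 and H4 promoters and in 1.60% of all. TATAAA was in 46.0% of histone promoters and 12.4% of all. These shares describe letters in the sequence, not bound factors.

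Other genes of histone supply were read from the same fit. Over all genes, DESeq2 tested 13801 and called 279 higher and 503 lower in Lgmn KO. The share of all genes at an unadjusted p below 0.05 is not given here. Counts at that threshold, in these lists and in the marker lists, are therefore a description, and nothing is read from them. Replacement and variant histone genes lie outside the Hist clusters, and most are expressed outside S phase with poly(A) tails. Of 11 such genes tested, edgeR called 0, with 3 at an unadjusted p below 0.05. DESeq2 called 2, both higher in Lgmn KO. The median log2 fold change was -0.04, with 4 values above 0 and 7 below. H2afy2, a macroH2A gene, was lower in every Lgmn KO library, at 0.657 ± 0.095 CPM against 1.66 ± 0.25 in WT, a log2 fold change of -1.33 (SE 0.30). The H3.3 gene H3f3b had 442 ± 10.7 CPM in Lgmn KO against 365 ± 13.4 in WT, and the second one, H3f3a, 131 ± 13.2 and 147 ± 1.76. H1f0, a linker histone of cells that no longer divide, had 146 ± 9.34 CPM in Lgmn KO against 113 ± 3.45 in WT, a log2 fold change of 0.37 (SE 0.07). Its libraries did not overlap, and its difference pointed the same way as that of Hist1h1c.

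Of 30 tested genes that transcribe histone genes or process the 3′ end of their messages, edgeR and DESeq2 called 0, with 3 at an unadjusted p below 0.05 and a median log2 fold change of -0.01. The cyclins E, which drive histone transcription at the start of S phase, had log2 fold changes of -0.86 (Ccne1, SE 0.27) and -1.02 (Ccne2, SE 0.33). Of 30 histone chaperones, edgeR called 0 and DESeq2 called 2 lower, with 3 at an unadjusted p below 0.05 and a median of -0.01. Hjurp, the chaperone of the centromere histone, had a log2 fold change of -0.60 (SE 0.11).

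Of 32 S phase genes, edgeR and DESeq2 called 0, with 7 at an unadjusted p below 0.05 and a median of -0.17. Pcna, the sliding clamp of DNA polymerase, had 185 ± 7.91 CPM in Lgmn KO against 169 ± 13.2 in WT. Of 22 genes of G2 and M phase, edgeR and DESeq2 called 0, with 8 at an unadjusted p below 0.05, and all 22 fitted values were below 0, at a median of -0.57. Their summed level was 71.4 to 117 CPM in Lgmn KO against 123 to 172 CPM in WT. Mki67, a marker of cycling cells, had 16.5 ± 3.27 and 27.0 ± 9.86 CPM. The part of cycling cells in the histone differences was not tested.

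The 12 macrophage markers were all detected, and their sum, mostly Lyz2, was 20485 to 23678 CPM in the Lgmn KO libraries against 23213 to 24306 in WT. Of the 12, 10 had fitted values below 0, at a median log2 fold change of -0.63, and 9 were at an unadjusted p below 0.05. C1qa was called lower by edgeR, at -2.37 (SE 0.39), and 5 markers were called lower by DESeq2. The complement genes C1qb and C1qc had log2 fold changes of -2.03 (SE 0.35) and -2.10 (SE 0.38). Sums of 4 other marker lists did not overlap between the groups. Summed T and NK cell markers were 7.59 to 9.55 CPM in Lgmn KO against 14.4 to 23.7 CPM in WT, with 15 of 16 detected and Ncr1 at 0. Trac and Il2rb were called lower by edgeR, and 9 of the 16 by DESeq2. Dendritic cell markers were 3.25 to 5.18 and 5.30 to 15.8 CPM, with Siglech at 0 and Zbtb46 called lower. Fibroblast markers were 45.4 to 117 and 132 to 180 CPM, and erythroid and platelet markers 47.6 to 51.5 and 66.8 to 86.3 CPM, with 0 called by edgeR and 1 by DESeq2 in each list. Neutrophil markers, at 272 to 328 and 311 to 454 CPM, endothelial markers (24.1 to 42.0 and 36.5 to 42.1 CPM, Flt1 called lower), and B cell and cardiomyocyte markers overlapped between the groups. DESeq2 called 1 dendritic cell, 2 endothelial and 1 neutrophil marker lower, and no B cell or cardiomyocyte marker. The part of these cells in the histone differences was not tested.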

How the data were processed

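Histone rows were read from 1 table of all 6 libraries. Per the file headers it holds the authors' counts and FPKM per gene, their log2 fold change, p-value and q-value. Per the submitters' processing notes HISAT2, TopHat and TopHat2 2.0.9 were used, with the human build hg38 named, but 98.8% of the gene IDs are in mouse GENCODE M21 and positions were taken as GRCm38 ones. The program that counted the reads, its use of strand and the test behind the authors' values are not stated in the labels or file headers used here.

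The deposited counts were filtered with filterByExpr (minimum count 10), scaled by TMM and compared with the quasi-likelihood test of edgeR 4.0.16 (R 4.3.3), Lgmn KO against WT without covariates, and adjusted over all 12546 genes by Benjamini-Hochberg. DESeq2 1.42.0 was an alternative. The procedure was tested on simulated data for Lgmn KO against WT, of which 12565 genes passed the filter. Of the genes that passed, 88.9% of the 99 given a change of 2-fold were found, and 100% of the 98 given 4-fold. Among the unchanged genes 8 were called. The simulation gave every gene the same spread between libraries, which real genes do not have, so these shares may not hold for the real libraries. Windows of 50 bases were matched among M21 transcripts, and promoters came from RefSeq. Depth was 19546253 to 24086976 counts per library.

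Members and lists were chosen with earlier results of these data known. Named genes were the 3 of highest FPKM per class, the called genes, the 5 of smallest p in each direction, those at the filter's edge, and from each list the 2 of highest level and the 2 of smallest p, of which those a result turns on are printed. Hist1h2br, the Gm transcripts, the small RNAs at few counts, markers at 0 and other genes outside this rule, chosen after their values were seen, are named only where a result turns on them.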

Additional observations from a re-analysis of the deposited data

How the results depend on the processing

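The calls depended on the settings. Against 99 genes and 3 histone genes, a threshold of 0.1 called 503 and 5, DESeq2 called 782 and 5, and no filter on low counts called 318 genes, 4 of them histone genes. Leaving out 1 library gave 6 to 639 genes and 0 to 4 histone genes, with the highest counts without WT replicate 1 and the lowest without Lgmn KO replicate 2. Hist1h1c was called in 5 of those 6 fits. Replicate numbers 1 and 2 occur in both groups, with correlations of deviations of 0.13 and 0.06. The crossed pairs had -0.17 (Lgmn KO 1 with WT 2) and -0.035 (Lgmn KO 2 with WT 1). The labels do not say whether libraries of the same number share anything more, and these few values cannot decide it. The replicate block on those 4 libraries called 33 genes and 1 histone gene, and the same libraries without the block 4 and 0.

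The log2 ratio of summed histone CPM, 0.60, was 0.29 without the most abundant gene of each class. For linker genes it moved from 1.21 to 1.62, and for core genes from 0.33 to 0.18 without Hist2h2aa1 and Hist2h3c1, an alternative chosen after seeing the data. The linker to core difference moved from 0.88 to 1.42 without Hist1h1c. The 2 linker values without Hist1h1c, 1.62 and 1.42, rest on very few counts. Each of the other linker genes had at most 19 counts over all 6 libraries. The log2 ratios of the sums kept their direction in every alternative run. TMM and RLE factors gave the same 3 histone calls.

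Signs turned in 3 genes of low or overlapping counts. With libraries left out, Hist1h2bh ranged from -0.44 to 0.11, Hist1h4i from -0.25 to 0.30 and Hist3h2ba from -0.83 to 0.40. With the replicate block Hist1h4i had 0.15 and Hist3h2ba 0.68, and on the same libraries without the block 0.070 and 0.54. Hist3h2ba had 0.023 by DESeq2 and 0.013 without the filter. The cause was not tested. Counts of 1 to 9 over all libraries in 36 histone genes limit what could be compared.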
